A study of Mus musculus with 24 samples.

Results

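The nuclear receptors described here were 33 genes, taken as every probe on the array whose gene name matched a member of the family exactly. They were carried by 75 of the 56605 probes of the array. Of those probes, 58 were bright enough to be tested (30003 were tested in all), and they covered 30 genes. The genes with no tested probe were Vdr, Rorb and Hnf4g.

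Nuclear receptors are transcription factors that bind DNA and, in most cases, a small lipid-soluble ligand such as a steroid, thyroid hormone, retinoic acid, a bile acid, an oxysterol or a fatty acid. Many of them work as a heterodimer with a retinoid X receptor (RXR), and ligand binding exchanges corepressors for coactivators on the receptor. In the liver they are known for setting the expression of genes of fatty acid oxidation, lipogenesis, bile acid synthesis, gluconeogenesis and the metabolism of drugs. Their own mRNA level is one of several layers of control, beside ligand supply and the coregulators, and it is the layer measured here.

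Total RNA of the liver of male C57Bl6J mice of the third generation of 2 dietary lineages was hybridised to 1-colour arrays, 1 array per mouse. The reference group (STD_Cont, n = 9) came from the control lineage, whose growing diet held sunflower oil rich in oleic acid, and was given a low-fat diet. The HFoleic group (HFD_Cont, n = 8) came from the same lineage, and the HFepa group (HFD_O3, n = 7) from the omega 3 lineage (n-3PUFA), whose growing diet held fish oil rich in eicosapentaenoic acid (EPA). Both were given a diet high in fat and sucrose after matching for body weight, and all mice were killed while fasting. A low-fat group of the omega 3 lineage was not analysed here, so the HFepa against reference comparison holds diet and lineage together, and the ages of the mice were not given in the sources used here. The question of the comparisons was which receptors differ with the obesogenic diet, and which differ between the lineages on that diet. Without that low-fat group, a changed response to the diet cannot be told apart from a lineage difference already present before the diet.

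Signals are given as log2 of the median spot intensity after quantile normalization, so that a difference of 1 is a doubling, and they are compared between mice for 1 probe at a time. Between 50.9% and 60.8% of probes were well above background on each array, no spot was saturated, and 2 arrays of a group correlated at 0.974 to 0.996. All 6 hepatocyte markers (Alb, Apoa1, Ttr, Serpina1a, Cps1 and Fgb) were well above background on all 24 arrays. In HFoleic, Cps1 of these fell by 0.89 (adjusted p = 0.00166), as did 1 of 5 tested cholangiocyte markers (Sox9, by 0.65, adjusted p = 0.0279), and no marker of any cell type passed in HFepa. Reference replicate 5 stood apart. Its mean over the tested cholangiocyte markers was 9.18 against 7.49 to 8.11 on the other 23 arrays, and its mean over stellate cell markers was 10.19 against 9.29 to 9.76, while its hepatocyte mean of 16.85 lay within the range of the others. In whole liver, fewer cells of a type and less RNA per cell cannot be told apart. Values that moved most with this mouse are given with and without it.

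In HFoleic livers, Rara (retinoic acid receptor alpha) and Nr3c1 (the glucocorticoid receptor) rose, and Esrra (estrogen-related receptor alpha) and Thra (thyroid hormone receptor alpha) fell. These were 4 of 58 receptor probes (6.90%) at an adjusted p of limma under 0.05, beside 7.23% of all tested probes. The 2 receptor probes that rose and the 2 that fell were 3.45% each, beside 4.05% of all probes higher and 3.19% lower. The share among receptors was therefore close to that of the array. No receptor probe passed in HFepa against the reference, where 0.393% of all probes passed. At an unadjusted p under 0.05 there were 8 receptor probes (13.8%, against 13.5% of all probes), and the per-probe test of the study's methods also gave 0 after adjustment. No receptor probe passed between HFepa and HFoleic either, where 0.00% of all probes passed and 4 receptor probes (6.90%, against 9.70%) had an unadjusted p under 0.05.

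**Figure D1:**
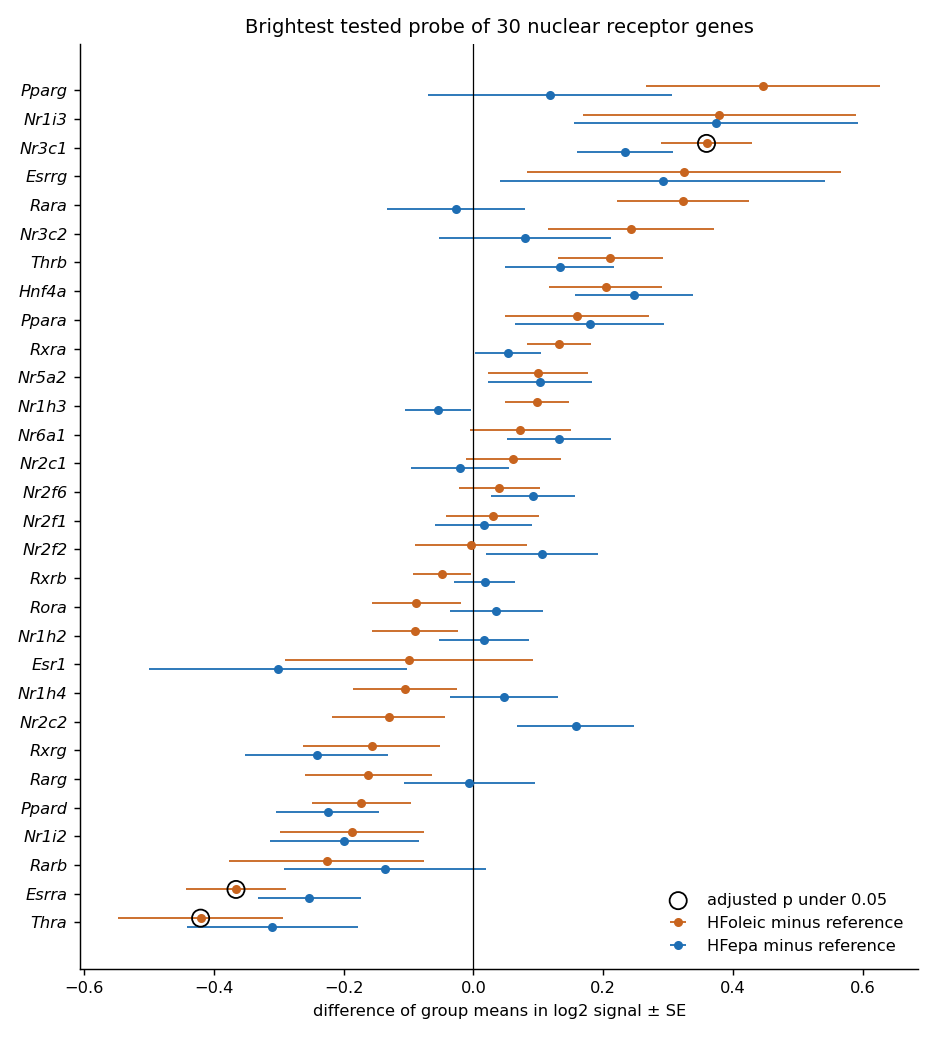
Difference of group means in log2 signal (x axis) of the brightest tested probe of 30 nuclear receptor genes (y axis), with standard errors from limma, for HFoleic minus reference (orange) and HFepa minus reference (blue). Circles mark adjusted p under 0.05, which was reached by Nr3c1 (0.36), Esrra (-0.37) and Thra (-0.42) in HFoleic; the Rara probe that was called is its dimmer one and is not drawn here.

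Most receptor changes were small, but with all mice included their median size was above that of the array. The median size of the HFoleic difference over the 58 probes was 0.13 on the log2 scale, against 0.0955 over all tested probes. The median SE was 0.093 and 0.089. In HFepa the median size was 0.13 against 0.083. These medians include reference replicate 5. Without that mouse the HFoleic difference shrank for Nr1i3 (0.38 to 0.14) and Ppara (0.16 to 0.06) and grew for Nr1h4 (-0.11 to -0.17). How much of the larger median size rests on that mouse was not tested. The brightest probe of 23 of 30 genes moved by less than 0.25 in HFoleic. By those 30 probes, 16 genes were higher and 14 lower in HFoleic than in the reference, where 49.8% of all tested probes were higher. Of 21 genes with more than 1 tested probe, 17 had all their probes on the same side of 0 in HFoleic, and the same share over all genes of the array was not computed. The within-group standard deviation of receptor probes had a median of 0.195, from 0.0736 for Rxrb to 0.612 for the dimmer probe of Nr1i3 with reference replicate 5 included, beside a median of 0.184 over all probes.

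Rara encodes the retinoic acid receptor that, with RXR, switches retinoid target genes on when retinoic acid binds. Both tested Rara probes lie on chromosome 11, plus strand, in mm9, the build of the array design. The first 30 bases of each 60-base probe are shown because both measured the same gene and both were higher in HFoleic.
Rara dimmer probe, chr11:98835350-98835409: cctgtacatatcctgcgtaccaatccccag
Rara brightest probe, chr11:98836197-98836256: tcctgctgggtttccactgagatctactgg

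On the dimmer Rara probe, reference livers read 8.14, 8.49 and 8.91 (lowest, median and highest, log2 signal), HFoleic livers 8.55, 9.16 and 9.38, and HFepa livers 8.32, 8.53 and 8.81. Of the 8 HFoleic mice, 7 lay above every reference mouse, whereas the HFepa mice spread over the reference range. Reference mice averaged 8.52 ± 0.27 (SD, n = 9) against 9.10 ± 0.25 for HFoleic mice (SD, n = 8), so that Rara rose by 0.58 ± 0.11 (SE) on the log2 scale, with an adjusted p of 0.00340. On the brightest Rara probe the rise was 0.32 ± 0.10 with an adjusted p of 0.0552, and that probe passed in 9 of the 13 other ways of processing the arrays. HFepa differed from the reference by 0.06 (adjusted p = 0.891) and -0.03 (adjusted p = 0.949) on the dimmer and the brightest probe. Against HFoleic, HFepa was lower by -0.52 ± 0.12 on the dimmer Rara probe, where 4 of 7 HFepa mice lay below every HFoleic mouse, but the adjusted p was 0.130, with an unadjusted p of 0.00022. On the brightest Rara probe the same difference was -0.35 (adjusted p = 0.271). The difference between the lineages did not pass for Rara, and over fits without 1 array it ran from -0.60 to -0.48 with adjusted p of 0.0506 to 0.322.

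**Figure D2:**
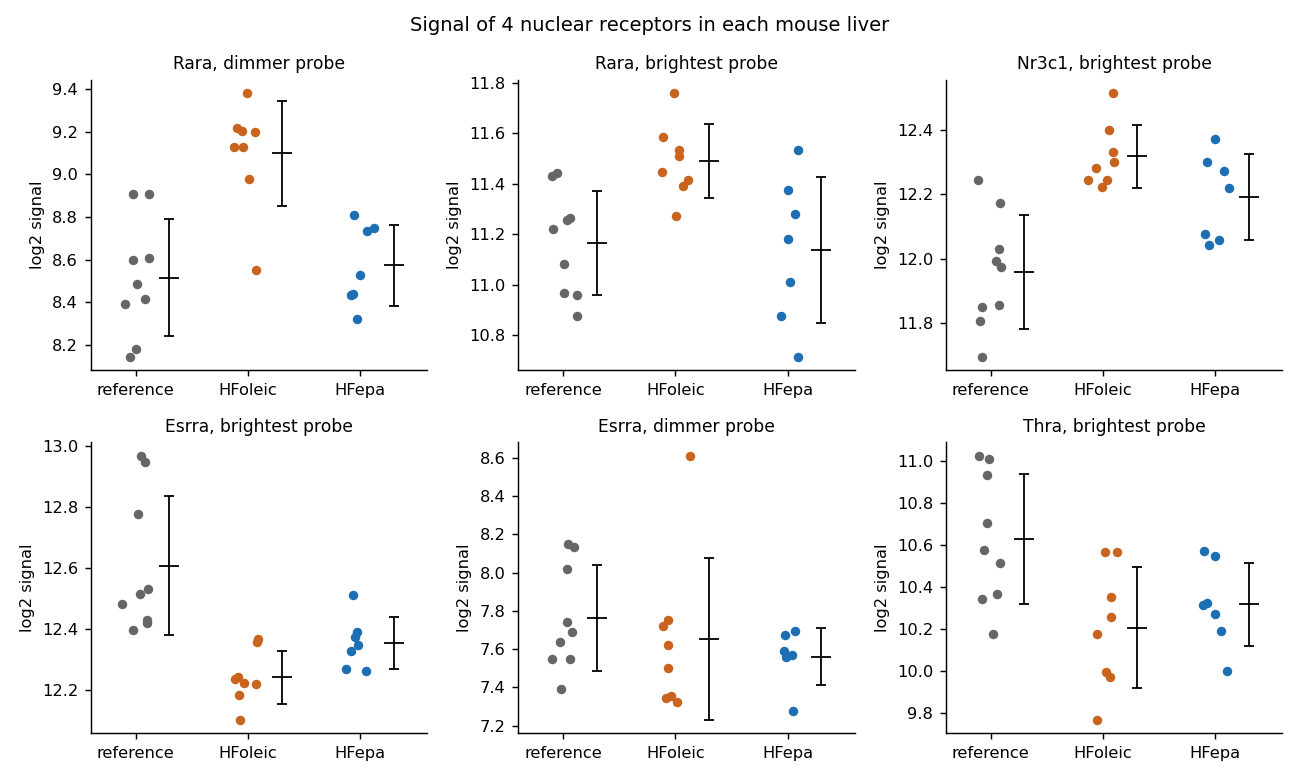
Log2 signal (y axis) of Rara (both probes), Nr3c1, Esrra (both probes) and Thra in each mouse of the 3 groups (points), with the mean and SD beside them. The mean of the HFoleic mice lies above that of the reference for Rara and Nr3c1 and below it for Esrra and Thra, and the dimmer Esrra probe has 1 high HFoleic mouse at 8.61.

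The other retinoic acid receptors did not pass the test. Rarb, whose own gene is induced by retinoic acid, differed by -0.23 ± 0.15 in HFoleic on its brightest probe (adjusted p = 0.421) and by -0.14 in HFepa. The reference spread of Rarb was set by replicate 5, at 9.01 where the other 8 reference mice read 7.56 to 7.90. Without it the HFoleic difference of Rarb was -0.08 and the HFepa difference 0.007, and its part in the level of Rarb, beside the high stellate cell markers of that mouse, was not tested. Rarb had 2 more tested probes (-0.24 and -0.02), and the latter was well above background on 5 of 9 reference, 4 of 8 HFoleic and 6 of 7 HFepa arrays, so that it entered the test through HFepa alone. Rarg, the gamma receptor of the subfamily, differed by -0.16 in HFoleic and -0.01 in HFepa.

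Among 6 genes listed as retinoic acid receptor targets, 2 rose in HFoleic and none fell, on 3 of 7 probes (42.9%, beside 7.23% of all tested probes). The median difference over the probes was 0.25, beside -0.0007 over all probes. This list and those below were chosen with earlier results of these data known, so their shares are descriptions. Cyp26a1, the cytochrome that degrades retinoic acid, read 5.96, 6.57 and 7.83 in the reference, 6.96, 7.71 and 8.22 in HFoleic and 6.61, 6.69 and 7.05 in HFepa. It was well above background in every mouse, and the HFepa mice sat together near the reference median. The rise of Cyp26a1 in HFoleic was 1.06 ± 0.20 (adjusted p = 0.00230), that in HFepa 0.14 (adjusted p = 0.831), and HFepa differed from HFoleic by -0.92 ± 0.21 with an adjusted p of 0.120. Dhrs3, a retinaldehyde reductase, rose by 0.25 ± 0.07 (adjusted p = 0.0275) on its brightest probe in HFoleic and differed by 0.10 in HFepa (adjusted p = 0.575). Without reference replicate 5 both genes passed, Cyp26a1 at 1.21 and Dhrs3 at 0.23 (adjusted p = 0.0473), while a second Dhrs3 probe (0.35, adjusted p = 0.0431 with all mice) did not. Of the 7 stellate cell markers, the cells that store retinol, Lrat alone passed, with a rise of 0.56 (adjusted p = 0.00150) in HFoleic, and the median difference of the 7 markers was 0.05.

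Retinoic acid receptors bind direct repeats of a short hexamer, and such repeats upstream of Rarb and Cyp26a1 are textbook retinoic acid response elements. A pair of GTTCA separated by 6 bases of any kind, searched on both strands, was found in 25 of 32851 RefSeq promoter windows (0.0761%). Each window held 300 bases and ended 50 bases past the start site, in GRCm38.p6. Rarb was the only gene with a match among the 30 receptors that have such a window, and Cyp26a1 the only one among the 6 listed targets. The 150 bases before each start site are shown, read along the gene, with the match in capitals; it lies 52 to 37 bases before the start of Rarb and 32 to 17 bases before that of Cyp26a1, where it reads on the opposite strand.
Rarb, chr14:16575477-16575626, minus strand: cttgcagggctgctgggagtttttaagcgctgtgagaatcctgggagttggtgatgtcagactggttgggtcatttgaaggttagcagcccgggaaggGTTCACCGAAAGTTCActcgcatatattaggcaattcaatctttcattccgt
Cyp26a1, chr19:37697658-37697807, plus strand: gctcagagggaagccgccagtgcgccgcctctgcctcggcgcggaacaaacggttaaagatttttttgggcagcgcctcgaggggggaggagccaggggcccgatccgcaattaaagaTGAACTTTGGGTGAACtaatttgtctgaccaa

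In HFoleic the brightest probe of Cyp26a1 differed by 1.06 and that of Rarb by -0.23. A match of letters is a description and shows no binding. The single hexamer AGGTCA, the core to which most of the family bind, was in 10 of the 50 windows of the receptors (of Nr1h4, Nr5a2, Nr6a1, Pparg, Rara, Rarg, Rxra, Rxrg and Thrb) and in 5340 of all windows (16.3%), and neither repeat shown above holds it.

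Nr3c1 encodes the glucocorticoid receptor, which drives gluconeogenic and amino acid catabolic genes in fasting. Its brightest probe, on chromosome 18, read 11.70, 11.97 and 12.24 in the reference, 12.22, 12.29 and 12.51 in HFoleic and 12.04, 12.22 and 12.37 in HFepa. In HFoleic, 6 of 8 mice lay above every reference mouse, and the HFepa mice overlapped both groups. Nr3c1 rose by 0.36 ± 0.07 or 1.28-fold in HFoleic (adjusted p = 0.00350). In HFepa the difference was 0.23 ± 0.07 and all 7 mice exceeded the reference average, but the adjusted p was 0.138. A second Nr3c1 probe gave 0.20 (adjusted p = 0.180) and 0.16 (adjusted p = 0.447). The related mineralocorticoid receptor Nr3c2 was measured by 3 probes, which differed by 0.19 to 0.26 in HFoleic, with no adjusted p below 0.157.

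The listed targets of the glucocorticoid receptor were lower in HFoleic where they changed. Of 10 genes, 3 fell and none rose in HFoleic, on 3 of 14 probes (21.4%, beside 7.23% of all tested probes). The median difference was -0.54, and 9 of the 14 probes had an unadjusted p under 0.05, beside 21.1% of all tested probes. Pck1, the rate-limiting enzyme of gluconeogenesis, fell by 0.74 on the log2 scale (adjusted p = 0.000602), Tat, which starts the breakdown of tyrosine, fell by 0.63 (adjusted p = 0.00858), and Fkbp5, a co-chaperone of the receptor, fell by 0.50 (adjusted p = 0.0280). In HFepa the differences were -0.29 for Pck1, -0.45 for Tat and 0.02 for Fkbp5, and 0 genes passed. Fkbp5 lost its call in 7 of 24 fits without 1 array, whereas Pck1 and Tat passed in all 24. Between HFepa and HFoleic, Fkbp5 differed by 0.52 (adjusted p = 0.231) and Pck1 by 0.44 (adjusted p = 0.201), in 7 of 7 HFepa mice above the HFoleic mean for both. The study's own RT-qPCR marked Pck1 as lower in HFoleic and in HFepa than in the reference, and not as different between HFepa and HFoleic.

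Esrra, an orphan receptor without a known natural ligand that controls mitochondrial genes together with the coactivator PGC-1alpha, was measured by 2 probes on the minus strand of chromosome 19. Their first 30 bases are shown because they disagreed in size.
Esrra brightest probe, chr19:6985503-6985562: cagagactctattttaatgtatatttgctg
Esrra dimmer probe, chr19:6991170-6991229: ggggaggtgaaactgacttggtcagaactg

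The brightest Esrra probe read 12.40, 12.51 and 12.97 in the reference, 12.10, 12.23 and 12.37 in HFoleic and 12.26, 12.35 and 12.51 in HFepa. The HFoleic and reference mice did not overlap, and 6 of 7 HFepa mice also lay below every reference mouse. Esrra fell by 0.37 ± 0.08 on the log2 scale in HFoleic, a change of 1.29-fold (adjusted p = 0.00521), and was -0.25 ± 0.08 in HFepa (adjusted p = 0.138). The dimmer probe gave -0.11 ± 0.14 (adjusted p = 0.734), and -0.25 (adjusted p = 0.196) without HFoleic replicate 4, which read 8.61 there. The mean of the 2 probes was -0.24 ± 0.24 in HFoleic (adjusted p = 0.626). HFepa replicate 3 had no value on the dimmer probe, so its mean held the brightest probe alone (12.33). That widens the spread shared by the 3 groups, so this p cannot decide whether the mean fell.

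Esrrg, a sister receptor, differed by 0.32 ± 0.24 in HFoleic and 0.29 in HFepa, values that dropped to 0.12 and 0.08 without reference replicate 5, the lowest of all mice at 5.58. Esr1, the estrogen receptor alpha, had 4 tested probes that were all lower in HFoleic (-0.32 to -0.05). Its brightest probe differed by -0.10 in HFoleic and -0.30 in HFepa, and by -0.008 and -0.21 without reference replicate 5. A dimmer Esr1 probe gave -0.48 ± 0.17 in HFepa (unadjusted p = 0.00958, adjusted p = 0.196). Its highest reference value, 7.44, was that of replicate 5, the other reference mice reached 6.96 and the HFepa mice 6.93. Without replicate 5 that difference of Esr1 was -0.39 ± 0.16 (unadjusted p = 0.0215, adjusted p = 0.301), and the 4 Esr1 probes ran from -0.23 to -0.003 in HFoleic.

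Coregulators, which the receptors recruit to open or close chromatin, were read from 2 lists. Of 12 coactivator genes 1 fell in HFoleic, on 2 of 29 probes (6.90%, beside 7.23% of all tested probes, median difference -0.03). Of 8 corepressor genes none passed on 26 probes by limma (0 also by the study's per-probe test, median difference -0.05). Of the 26 probes, 2 had an unadjusted p under 0.05, beside 21.1% of all tested probes. The gene that fell was Ppargc1a, which encodes PGC-1alpha, the coactivator of Esrra and of the PPARs. It read 9.17, 9.72 and 10.54 in the reference, 8.79, 9.18 and 9.51 in HFoleic and 8.85, 9.03 and 9.46 in HFepa. Both high-fat groups were low and each overlapped the reference, whose highest mouse was replicate 5. Ppargc1a fell by 0.54 ± 0.15 on the log2 scale in HFoleic (adjusted p = 0.0296), passing in 18 of 24 fits without 1 array (-0.44, adjusted p = 0.0433 without reference replicate 5) and in 10 of 13 other settings, and was -0.62 ± 0.16 in HFepa (adjusted p = 0.0700). No coactivator probe passed in the fit of the 2 groups alone, with no filter on dim probes or by the study's per-probe test. The study's own RT-qPCR marked no significant change of Ppargc1a between HFoleic and the reference. The corepressors with the smallest p in HFoleic were Ncor1 (-0.14, adjusted p = 0.148) and Nrip1 (-0.28, adjusted p = 0.153), each on a dimmer probe, and the 7 probes of Ncor1 ran from -0.14 to 0.14.

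Thyroid hormone receptors bind T3 and, in the liver, act mainly through the beta form. Thra was measured by 3 probes on the plus strand of chromosome 11, and 1 of them spans an exon junction. Their first 30 bases are shown because the fall was largest on the brightest probe.
Thra brightest probe, chr11:98626356-98626415: aaatggtagtcatcctaactgcactttgga
Thra second probe, chr11:98625642-98625701: tacctgctggcgtttgagcactacgtcaac
Thra junction probe, chr11:98617475-98618281: aaagcagcatgtcagggtatatccctagtt

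On the brightest probe, Thra read 10.18, 10.58 and 11.02 in the reference, 9.77, 10.22 and 10.57 in HFoleic and 9.999, 10.32 and 10.57 in HFepa. The groups overlapped, and 3 of 8 HFoleic mice lay below every reference mouse. Thra fell by 0.42 ± 0.13 on the log2 scale in HFoleic (adjusted p = 0.0434) and was -0.31 in HFepa (adjusted p = 0.292). The other probes gave -0.17 (adjusted p = 0.266) and -0.03 (adjusted p = 0.897). The call was the least firm of the 4. It was lost in 12 of 24 fits without 1 array, reference replicate 5 among them (-0.37, adjusted p = 0.0743), and in 8 of 14 other settings.

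Thrb, the beta receptor, moved the other way on both its probes, 0.21 ± 0.08 (adjusted p = 0.120) and 0.17 (adjusted p = 0.0915) in HFoleic, and neither passed. Of 6 genes listed as thyroid hormone receptor targets, 1 rose in HFoleic, on 3 of 12 probes (25.0%, beside 7.23% of all tested probes). The median difference over the 12 probes was 0.12. That gene was Dio1, the deiodinase that makes and clears T3, a classic T3-induced gene of the liver. It read 9.02, 10.81 and 10.96 in the reference, 11.16, 11.28 and 11.53 in HFoleic and 10.81, 11.12 and 11.40 in HFepa. All 8 HFoleic mice lay above all 9 reference mice, the lowest of which was replicate 5. The rise of Dio1 was 0.77 ± 0.19 (adjusted p = 0.0129), and 0.58 (adjusted p = 0.00275) without replicate 5. In HFepa it was 0.57 ± 0.20 with an adjusted p of 0.172.

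**Figure D3:**
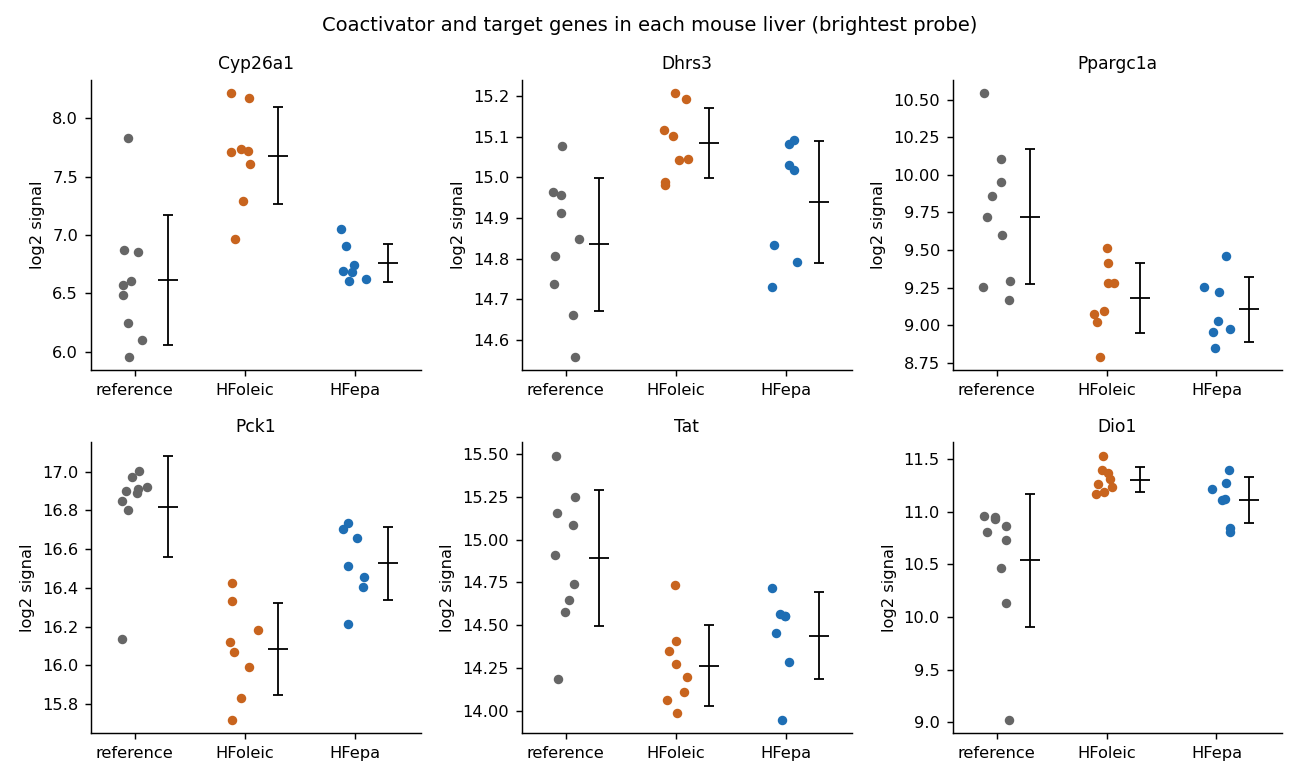
Log2 signal (y axis) of the brightest probe of Cyp26a1, Dhrs3, Ppargc1a, Pck1, Tat and Dio1 in each mouse of the 3 groups (points), with the mean and SD beside them. Cyp26a1, Dhrs3 and Dio1 are higher in HFoleic than in the reference and Ppargc1a, Pck1 and Tat lower; 1 reference mouse lies at 9.02 for Dio1.

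Beyond the 33 members, 15 other nuclear receptors were listed, 11 of which could be tested. Nr1d2 (REV-ERB beta), a repressor of the circadian clock, rose in HFoleic on 3 probes of 17 (17.6%, beside 7.23% of all tested probes). The rise of Nr1d2 was 0.58 ± 0.14 on its brightest probe (adjusted p = 0.0100). In HFepa Nr1d2 was 0.52 ± 0.14 (adjusted p = 0.0968), and the median difference of the 17 probes in HFoleic was 0.15. Nr0b2 (SHP), the repressor induced by FXR, is given although it was chosen after its values were seen. It was 0.81 ± 0.26 in HFoleic (adjusted p = 0.0607), -0.13 in HFepa (adjusted p = 0.899) and -0.94 between HFepa and HFoleic (adjusted p = 0.25). Reference replicate 5 was the lowest mouse for Nr1d2, at 9.20, and the rise without it was 0.49 (adjusted p = 0.0144). The count of 3 Nr1d2 probes was the least firm on a dimmer one, which was 0.40 (adjusted p = 0.0659) without that mouse and passed in 7 of 24 fits without 1 array, so that the count over the list ran from 1 to 6 in those fits and from 1 to 3 in 13 other settings. A score of clock genes was taken as genes of the Arntl phase minus genes of the Dbp phase, so that a high score is the Arntl phase. It averaged 0.41 ± 0.53 (SD) in reference mice, -0.34 ± 0.78 in HFoleic mice and -0.14 ± 1.11 in HFepa mice, on the log2 scale. With this score as a covariate the calls of Rara (0.48, adjusted p = 0.0184), Nr3c1 (0.32, adjusted p = 0.0182) and Esrra (-0.35, adjusted p = 0.0202) were kept, and that of Thra was not (-0.39, adjusted p = 0.122).

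The peroxisome proliferator-activated receptors (PPARs) sense fatty acids. Ppara, the main fasting receptor of the liver, read 13.49, 14.35 and 14.55 in the reference, 14.20, 14.53 and 14.67 in HFoleic and 14.30, 14.47 and 14.66 in HFepa. The 3 groups overlapped apart from reference replicate 5, the lowest mouse. Ppara differed by 0.16 ± 0.11 in HFoleic (adjusted p = 0.444) and 0.18 ± 0.11 in HFepa (adjusted p = 0.538), and by 0.06 and 0.08 without replicate 5. Its second probe gave 0.18 in HFoleic. No change of Ppara mRNA was thus detectable in either group.

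Some of its listed targets did change. Of 18 PPARalpha target genes, 6 fell in HFoleic and none rose, on 7 of 25 probes (28.0%, beside 7.23% of all tested probes). The median difference was -0.16. Ehhadh, of peroxisomal beta-oxidation, fell by 1.12 ± 0.27 on the log2 scale (adjusted p = 0.0121) and Fgf21, the fasting hormone of the liver, fell by 1.07 ± 0.30 (adjusted p = 0.0296). The omega-hydroxylases Cyp4a14 and Cyp4a10 fell by 0.71 (adjusted p = 0.000718) and 0.58 (adjusted p = 0.0352). Cpt1a, which admits fatty acids to the mitochondria, fell by 0.43 (adjusted p = 0.00239), and Angptl4, an inhibitor of lipoprotein lipase, fell by 0.44 (adjusted p = 0.0399). In HFepa 0 of the 18 passed, and 2 of 25 probes had an unadjusted p under 0.05, beside 13.5% of all tested probes. The HFepa values were -0.32 for Ehhadh, -0.32 for Fgf21, -0.23 for Cyp4a14, -0.15 for Cyp4a10, -0.30 for Cpt1a and 0.13 for Angptl4. Cyp4a14 and Angptl4 were 0.49 (adjusted p = 0.173) and 0.57 (adjusted p = 0.184) higher in HFepa than in HFoleic, short of the threshold. The study's RT-qPCR marked Angptl4 as higher in HFepa than in HFoleic and the reference, and marked no change of it in HFoleic. For Cpt1a it marked a fall in both groups against the reference, at its looser threshold only. The count of 7 probes ran from 3 to 10 over fits without 1 array, was 10 without reference replicate 5, and ran from 3 to 7 in 13 other settings. Ehhadh, Cpt1a and Cyp4a14 passed in all 24 fits without 1 array, and in those other settings Cyp4a10 passed in 7 of 13 and Angptl4 in 8 of 13.

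Pparg, the adipogenic receptor that is known to rise in fatty liver, read 9.62, 10.30 and 10.80 in the reference, 10.48, 10.73 and 11.06 in HFoleic and 9.98, 10.33 and 11.59 in HFepa. All 8 HFoleic mice lay above the reference mean. The difference of 0.45 ± 0.18 did not pass (adjusted p = 0.144), and it was 0.12 in HFepa (adjusted p = 0.854), where replicate 4 at 11.59 stood above the other 6 mice (9.98 to 10.63). Without that HFepa mouse, which widens the spread shared by the 3 groups, the HFoleic difference of 0.45 had an adjusted p of 0.0432. Of 7 genes listed as PPARgamma targets in fatty liver, 1 fell in HFoleic and none rose, on 1 of 12 probes (8.33%, beside 7.23% of all tested probes). The median difference was -0.35. The median rested on Lpl and Fabp4, which gave 7 of the 12 probes. Fabp4 read 13.22 and 12.91 in reference replicates 4 and 5 against 9.40 to 10.08 in the other 7 reference mice, and Lpl 12.74 in replicate 5. The median was -0.17 without replicate 5 and -0.06 without both. Cd36, Mogat1 and Cidea were higher in HFoleic by 0.77, 0.43 and 0.02, and by 0.79, 0.40 and 0.78 without both mice. Plin4 differed by -0.07, and by -0.16 without both. None of these genes passed with all mice. The gene that fell was Cidec, a lipid droplet protein, at -1.72 ± 0.47 in HFoleic (adjusted p = 0.0243) and -1.32 in HFepa (adjusted p = 0.212). Ppard, the delta form, differed by -0.17 (adjusted p = 0.188) and -0.22 (adjusted p = 0.193).

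**Figure D4:**
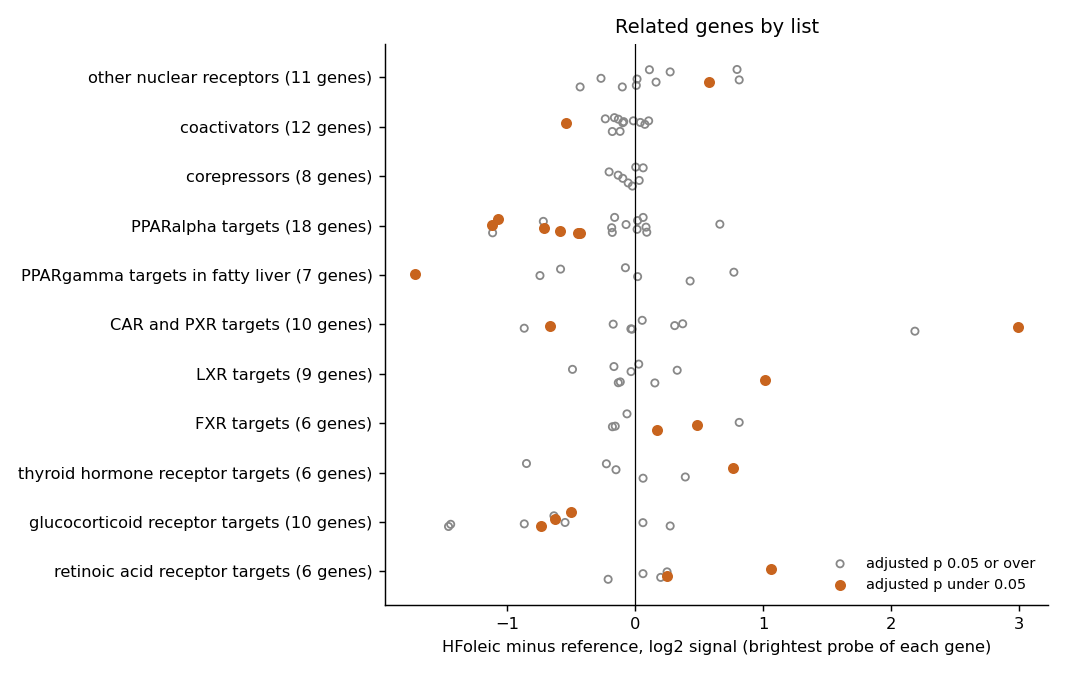
HFoleic minus reference in log2 signal (x axis) for the brightest tested probe of each gene in 11 lists of related genes (y axis, with the number of genes tested). Filled orange points passed at an adjusted p under 0.05 and open grey points did not; filled points of the PPARalpha and glucocorticoid receptor target lists lie below 0 and those of the retinoic acid receptor targets above 0.

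Nr1i3 (CAR) and Nr1i2 (PXR) sense drugs and other foreign chemicals. Nr1i3 read 9.58, 11.66 and 11.99 in the reference, 11.45, 11.83 and 12.05 in HFoleic and 11.57, 11.89 and 11.95 in HFepa. Reference replicate 5 lay far below the other 23 mice, whose groups overlapped. The difference of Nr1i3 was 0.38 ± 0.21 in HFoleic (adjusted p = 0.314) and 0.37 ± 0.22 in HFepa, and without replicate 5 it was 0.14 ± 0.08 (adjusted p = 0.325) and 0.14 ± 0.09 (adjusted p = 0.529). The dimmer Nr1i3 probe gave 0.60 ± 0.28 in HFoleic (adjusted p = 0.215) with replicate 5 at 7.07 and the other reference mice at 9.20 to 9.77, and 0.34 ± 0.18 without it (adjusted p = 0.299). Nr1i2 differed by -0.19 and -0.20 in HFoleic and HFepa. Of 10 tested CAR and PXR targets, 1 rose and 1 fell in HFoleic on 14 probes (14.3%, beside 7.23% of all tested probes, median difference -0.01). Cyp2b9, a cytochrome of the CAR-inducible Cyp2b family, rose by 2.99 ± 0.84 (adjusted p = 0.0288) between groups that overlapped, from 5.52 to 10.75 in the reference and 7.27 to 11.69 in HFoleic, and it lost its call in 7 of 24 fits without 1 array. The highest reference value of Cyp2b9 was that of replicate 5, the other 8 reference mice read 5.52 to 8.51, and without it the rise was 3.49 ± 0.76 (adjusted p = 0.0075). Por, the reductase that feeds electrons to cytochromes P450, fell by 0.67 ± 0.09 on the log2 scale in HFoleic (adjusted p = 0.000253) and was -0.30 in HFepa (adjusted p = 0.125).

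**Figure D5:**
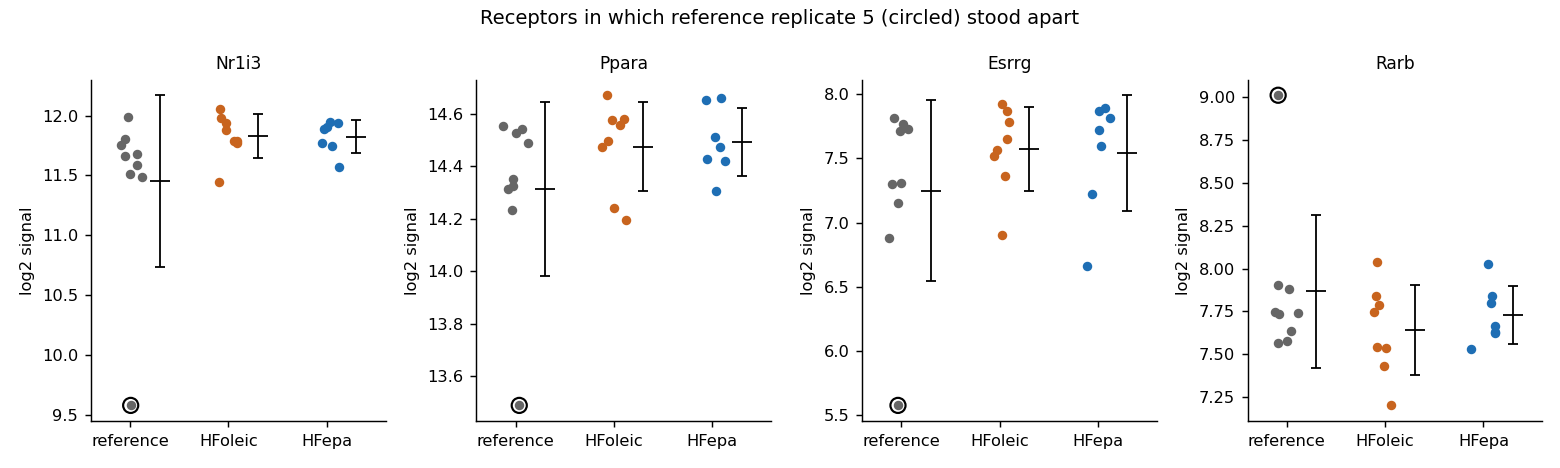
Log2 signal (y axis) of the brightest probe of Nr1i3, Ppara, Esrrg and Rarb in each mouse of the 3 groups (points), with the mean and SD beside them; reference replicate 5 is circled. It is the lowest mouse for Nr1i3 (9.58), Ppara (13.49) and Esrrg (5.58) and the highest for Rarb (9.01).

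No probe of the sterol and bile acid receptors passed. Nr1h3 (LXR alpha) differed by 0.10 ± 0.05 in HFoleic and by -0.06 ± 0.05 in HFepa on its brightest probe, and its HFepa minus HFoleic value was -0.15 (unadjusted p = 0.00738, adjusted p = 0.320), while the second probe gave -0.01. Nr1h2 (LXR beta) gave -0.09 and 0.08 on its 2 probes in HFoleic. Among 9 LXR targets Srebf1, the lipogenic transcription factor, rose by 1.02 ± 0.22 in HFoleic (adjusted p = 0.00552), and was 0.41 in HFepa (adjusted p = 0.448). It was 1 of 12 probes (8.33%, beside 7.23% of all tested probes, median difference -0.07). The study's RT-qPCR marked Srebf1 as higher in HFoleic than in the reference and lower in HFepa than in HFoleic. Nr1h4 (FXR), the bile acid receptor, differed by -0.11 in HFoleic and 0.05 in HFepa. Reference replicate 5 was its lowest reference mouse, and without it the differences of Nr1h4 were -0.17 (adjusted p = 0.133) and -0.01. Among 6 tested FXR targets Abcb11, the bile salt export pump, rose by 0.49 ± 0.10 in HFoleic (adjusted p = 0.00529) and Slc27a5, a bile acid ligase, by 0.17 (adjusted p = 0.0489). They were 2 of 9 probes (22.2%, beside 7.23% of all tested probes, median difference -0.06). The call of Slc27a5 remained in 4 of 24 fits without 1 array and in 2 of 13 other settings, and without reference replicate 5 it was lost (0.14, adjusted p = 0.0758). That of Abcb11 remained in all of both.

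Hnf4a, which maintains the hepatocyte programme, differed by 0.20 ± 0.09 in HFoleic (adjusted p = 0.169) and 0.25 ± 0.09 in HFepa (adjusted p = 0.208), with 7 of 8 and 7 of 7 mice above the reference mean, and by 0.01 and 0.17 on its second probe. The shared partner Rxra was measured with little spread, at 15.51, 15.62 and 15.73 in the reference and 15.63, 15.74 and 15.94 in HFoleic. It differed by 0.13 ± 0.05 in HFoleic (adjusted p = 0.109) and 0.05 in HFepa. Rxrb differed by -0.05 ± 0.05 and 0.02 ± 0.05, and Rxrg by -0.16 and -0.24. No RXR gene passed in any comparison.

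No probe of the remaining members passed in any comparison. Nr5a2 (LRH-1), a regulator of bile acid synthesis, differed by 0.10 in HFoleic and in HFepa. Rora, the ROR alpha receptor of the clock, differed by -0.09 and 0.04, and Nr6a1 (germ cell nuclear factor) by 0.07 and 0.13. The COUP factors Nr2f1, Nr2f2 and Nr2f6, known as repressors, differed by 0.03, -0.004 and 0.04 in HFoleic, where Nr2f2 had 7 values because 1 spot was marked as an outlier. Of the testis receptors, Nr2c1 differed by 0.06 in HFoleic, and Nr2c2 by -0.13 in HFoleic and 0.16 in HFepa. The HFepa minus HFoleic difference of Nr2c2 was 0.29 ± 0.09 (unadjusted p = 0.00461, adjusted p = 0.288), with 7 of 7 HFepa mice above the HFoleic mean and replicate 2 at 9.83 where the other HFepa mice read 8.98 to 9.19. Without replicate 2 it was 0.18 ± 0.06 (unadjusted p = 0.00699, adjusted p = 0.496), and Nr2c2 in HFepa against the reference was 0.05 (adjusted p = 0.825).

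The 3 genes with no tested probe were near background. Vdr, the vitamin D receptor, was well above background on 3 of 9 reference arrays by its better probe and on 0 arrays of the other groups. Rorb was so on 1 reference array. Hnf4g was so on 4 reference, 2 HFoleic and 1 HFepa arrays. No level or difference is given for them.

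The arrays came from 3 slides that each held all groups. Within the 3 slides the HFoleic minus reference difference ran from 0.46 to 0.61 for the dimmer Rara probe, from 0.28 to 0.44 for Nr3c1, from -0.60 to -0.24 for Esrra and from -0.68 to -0.25 for Thra, each in the direction of the whole. With slide as a block the adjusted p was 0.00298, 0.00358, 0.00472 and 0.0399.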

How the data were processed

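Scanner files of 24 arrays (Agilent Feature Extraction 10.10.1.1, per the labels) hold spot intensity as deposited. A second table, of quantile-normalized log2 values for 32176 probes, was deposited too and served as an alternative. Here, log2 median intensity was averaged over the spots of a probe without outlier spots, kept if marked well above background in 75% or more of 1 group's arrays (30003 probes), and quantile normalized. A group-means model was fitted to all 24 arrays with limma 3.58.1 in R 4.3.3, with Benjamini-Hochberg adjustment over all probes and a threshold of 0.05, and was tested on simulated data. Groups came from sample titles. Each gene was read by its brightest tested probe, with others where they differed; listed genes were named where called, or else by the 2 smallest p. Alternatives were the deposited table, other scalings, background correction and filters, a fit of 2 groups, the study's per-probe test, slide, slide row, replicate number or clock score in the model, probe means, and each array left out. Members and lists were chosen with earlier results of these data known. A filter on dim probes leaves small changes of poorly expressed receptors unmeasured, and the number of arrays limits the precision. Coordinates of probes are mm9 and those of promoters GRCm38.p6. Separate mice are replicates; separate litters or cages were not given in the sources used here.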

Additional observations from a re-analysis of the deposited data

Results flagged for a closer look

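Each of the 30 tested receptor genes was checked in the 3 groups for a mouse whose brightest-probe signal lay far from the others (Dixon's test). Of 90 groups of values, 12 held such a mouse, where chance gives about 1 in 20 for independent values. The genes were read in the same mice, so the 90 groups are not independent. The share over all tested probes was not computed, so the count is not a result particular to the receptors. Of the 12, 4 were reference replicate 5, with Rarb at 9.01 above the other reference mice (7.56 to 7.90), and Ppara at 13.49, Nr1i3 at 9.58 and Esrrg at 5.58 below them (14.23 to 14.55, 11.49 to 11.99 and 6.88 to 7.81). In HFepa, Pparg was high in replicate 4 at 11.59, and replicate 2 was low for Rxra at 15.50 and high for Nr2c2 at 9.83. In HFoleic, replicate 7 was low for Nr1h4 at 13.65 and high for Nr2c1 at 10.13, and replicate 2 was low for Nr1i3 at 11.45. In the reference, Rxrb was high in replicate 3 at 12.53 and Nr2f1 in replicate 4 at 8.19. The 4 receptors called in HFoleic were not among the 12.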

How the results depend on the processing

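The 4 receptor probes called in HFoleic became 3 to 6 in fits without 1 array and 3 to 5 under 13 other settings. Rara, Nr3c1 and Esrra passed in all 24 fits without 1 array, and the 4 called receptors kept their direction in every setting run. In HFepa against the reference the count ran from 0 to 1: without reference replicate 8, Nr3c1 passed (0.27, adjusted p = 0.0477). Between HFepa and HFoleic it was 0 in every setting run. Replicate numbers did not pair the mice (correlation of deviations between same-numbered mice -0.298 to 0.348, median 0.0035, n = 22 pairs), and the fit with the replicate block called 5 receptor probes. Thra missed the threshold under 8 of 14 other settings (-0.42 to -0.21, adjusted p 0.0575 to 0.179), and without reference replicates 4, 5, 6, 7 and 9, HFoleic replicates 1, 2, 5, 7 and 8 and HFepa replicates 3 and 6, each left out alone (down to -0.36, adjusted p up to 0.0920). The cause was not tested.

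Settings for the related genes were added after seeing the data. Left out alone, reference replicates 1, 6 and 7 and HFoleic replicates 1, 3, 4 and 7 ended the call of Fkbp5. Reference replicates 1 and 7 and HFoleic replicates 2, 3, 4 and 8 ended that of Ppargc1a, and reference replicates 1 and 3 and HFoleic replicates 1 and 8 that of Dhrs3. For Cidec they were reference replicate 1 and HFoleic replicates 2 and 8, and for Cyp2b9 reference replicates 1, 3, 6 and 7 and HFoleic replicates 1, 7 and 8. Angptl4, Fgf21 and Cyp4a10 passed in 14, 16 and 15 of 24 such fits. Over 13 other settings, Slc27a5 passed in 2, Cyp4a10 in 7, Angptl4 in 8, Fkbp5 in 9, Fgf21, Dhrs3 and Ppargc1a in 10, Cidec and Dio1 in 11 and Ehhadh in 12, by their brightest probes, and Cyp2b9 in 9 of 12. Abcb11, Cpt1a, Cyp26a1, Cyp4a14, Nr1d2, Pck1, Por, Srebf1 and Tat passed in all 13. PPARalpha target probes called fell from 7 to 3 with no filter on dim probes and by the study's per-probe test, and to 4 with processed signals scaled to the 75th percentile, the replicate block or the clock score. Without reference replicate 5, the median HFoleic difference was 0.07 for CAR and PXR targets, -0.14 for FXR targets and 0.10 for the other nuclear receptors, from -0.01, -0.06 and 0.15. Signal over background limits what the dimmest receptors can show.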
